A study of Homo sapiens with 2 samples.

Results

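Cassette exons were taken from the deposited models of full-length isoforms. An internal exon counted as a cassette exon when it lay wholly inside an intron of at least 1 other isoform of the same gene and that intron joined the 2 splice sites of the neighbouring exons. By this rule, 10600 exon models in 4913 genes were cassette exons, out of 95803 internal exon models in 12869 genes. Models that overlap were merged, which left 9280 separate cassette exons. The comparison exons were 37461 internal exon models of the same genes that no isoform skipped, merged to 31923, and 2965 further internal exon models that were skipped in other ways entered neither class. Of the 4913 genes, 4721 are annotated as protein-coding.

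The edits came from INSCRIBE, an in situ form of the STAMP assay, read by long-read cDNA sequencing on the PacBio platform. HEK293XT cells, named HEK293T in the sample titles, are an immortalized human embryonic kidney line, and both libraries came from fixed cells of this line. In 1 library, an antibody against endogenous RBFOX2 brought an APOBEC1-nanobody fusion, whose deaminase converts C to U, to RNA close to RBFOX2 (the RBFOX2 library). In the other, the fusion was applied without a primary antibody (the enzyme-only library). An edit site is a position where at least 1 read carries a C-to-U conversion. Each condition is 1 library, so intervals are 95% intervals of counting error only, and no test between conditions is possible. They are exact, except that ratios within genes have approximate intervals. Edits in 1 read are not independent of each other.

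A cassette exon is spliced into some transcripts of a gene and left out of others, as decided by proteins that bind the exon or its flanking introns. RBFOX2 is one such protein. It binds UGCAUG, and in general it promotes inclusion from the intron downstream of an exon and skipping from the intron upstream. Spliced mRNA has lost those introns, so that a read of mature mRNA can carry edits only in the included exon and its neighbours. APOBEC1 prefers cytosines that follow A or U.

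In all, 9 cassette exons are shown as hg38 (GRCh38) sequence on the transcript strand. Of these, 7 hold UGCAUG and RBFOX2 edits near it, and RNFT1 and PICALM are shown as exons without UGCAUG. Other motifs that the study counts for RBFOX2 were not searched for. PICALM holds GCAUG, RNFT1 holds GCUUG and GUGUG, and ATP1B3 and MKRN1 hold GCAUG also outside UGCAUG. Capitals mark each UGCAUG (written TGCATG) and each cytosine edited in the RBFOX2 library and not in the enzyme-only library. All 9 are coding exons.
ATP1B3 exon, chr3:141913652-141913836, + strand: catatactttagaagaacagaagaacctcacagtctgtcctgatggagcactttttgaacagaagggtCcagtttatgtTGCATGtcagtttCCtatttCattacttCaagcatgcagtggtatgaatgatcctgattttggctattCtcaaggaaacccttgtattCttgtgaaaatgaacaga
PPP2CA exon, chr5:134205922-134206131, - strand: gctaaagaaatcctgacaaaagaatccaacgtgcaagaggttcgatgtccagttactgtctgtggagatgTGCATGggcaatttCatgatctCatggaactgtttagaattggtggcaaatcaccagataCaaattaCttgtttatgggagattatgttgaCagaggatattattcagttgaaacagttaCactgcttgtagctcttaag
VRK1 exon, chr14:96856130-96856250, + strand: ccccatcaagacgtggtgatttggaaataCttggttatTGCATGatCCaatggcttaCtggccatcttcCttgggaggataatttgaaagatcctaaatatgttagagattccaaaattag
MKRN1 exon, chr7:140471883-140472011, - strand: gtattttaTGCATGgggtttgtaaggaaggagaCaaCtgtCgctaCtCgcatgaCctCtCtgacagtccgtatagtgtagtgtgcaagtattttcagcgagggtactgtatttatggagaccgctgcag
GPN3 exon, chr12:110459695-110459862, - strand: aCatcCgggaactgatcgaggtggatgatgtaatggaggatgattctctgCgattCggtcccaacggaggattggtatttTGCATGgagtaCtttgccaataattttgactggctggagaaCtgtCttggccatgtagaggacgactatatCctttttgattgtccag
PCMT1 exon, chr6:149789954-149790058, + strand: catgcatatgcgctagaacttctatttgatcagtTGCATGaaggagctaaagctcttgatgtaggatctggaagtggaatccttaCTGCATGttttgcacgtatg
DGUOK exon, chr2:73957125-73957240, + strand: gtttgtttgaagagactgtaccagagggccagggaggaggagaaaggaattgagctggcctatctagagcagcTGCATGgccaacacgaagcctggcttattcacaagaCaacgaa
RNFT1 exon, chr17:59960068-59960168, - strand: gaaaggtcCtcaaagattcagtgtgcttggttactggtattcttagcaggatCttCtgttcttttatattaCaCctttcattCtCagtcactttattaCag
PICALM exon, chr11:85978070-85978093, - strand: aatggcatgcattttccaCaatac

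The cassette exons were somewhat shorter than the comparison exons, with a median of 111 nt against 117 nt. Their length was a multiple of 3, which keeps the reading frame whether the exon is in or out, in 3982 of 9280 (42.9%, interval 41.9 to 43.9%), against 37.8% (37.2 to 38.3%) of never-skipped exons. Very short exons of 27 nt or less made up 0.873% of cassette exons and 0.257% of never-skipped exons. GENCODE listed the same exon for 87.7% of cassette exons and a transcript that joins the neighbours across it for 71.3%. Every cytosine was coding in 61.1% of cassette exons, against 88.3% of never-skipped exons, and no cytosine was coding in 24.5% against 2.68%. The cassette class therefore holds more untranslated and unannotated exons. Many rest on few isoform models: 1 including isoform stood behind 25.5% of cassette exons and 1 skipping isoform behind 35.2%. The median cassette exon was in 66.7% of the isoform models that include or skip it, and the models carry no read numbers.

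Over all listed positions, the RBFOX2 library had 109357 sites that the enzyme-only library lacked, and the enzyme-only library 91111 that the RBFOX2 library lacked, a ratio of 1.20. The reads of the listed genes summed to 2431345 and 2233600, a ratio of 1.09. Positions listed in both libraries, 662 of them in cassette exons, were left out. Each site was listed only where its converted reads exceeded 0.002 of the reads of the whole gene, so in genes with 500 reads or more a single converted read was not listed.

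Cassette exons carried 5927 sites in the RBFOX2 library, or 17.6 per 1000 of their 337485 cytosines (17.1 to 18.0). The enzyme-only library had 5252, or 15.6 per 1000 (15.1 to 16.0). Never-skipped exons carried 16.8 per 1000 (16.6 to 17.0) and 15.1 per 1000 (14.9 to 15.3). At least 1 site lay in 3728 cassette exons (40.2%, 39.2 to 41.2%), with a median of 2 sites and at most 38. Never-skipped exons had one more often, in 46.1% (45.5 to 46.6%). Sites in both libraries were in 1527 cassette exons (16.5%, 15.7 to 17.2%) and in 17.2% (16.8 to 17.6%) of never-skipped exons. Counted by cytosines and not by exons, edits reached about as large a share in cassette exons as in never-skipped internal exons when all genes were pooled.

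That near equality did not hold within genes. Pooled, the density in cassette exons was 1.04 times that of never-skipped exons in the RBFOX2 library (1.01 to 1.08) and 1.03 times in the enzyme-only library (0.998 to 1.06). Comparing each gene with itself (Mantel-Haenszel ratio over 4622 genes with both kinds of exon), it was 0.774 times (0.749 to 0.800) and 0.785 times (0.758 to 0.812). The direction was therefore opposite in the RBFOX2 library. It also depended on bases that a first or last exon of another isoform covers, such as the ends of truncated models, which made up 50.8% of cassette cytosines and 57.0% of never-skipped cytosines. On such bases cassette exons held 23.6 RBFOX2 sites per 1000 cytosines and never-skipped exons 20.5. On the remaining bases they held 11.3 and 11.9, and the ratio within genes was 0.639 (0.603 to 0.677).

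The density followed how many isoform models include the exon. Exons in up to 25% of the models, 2308 of them, had 1.82 RBFOX2 sites per 1000 cytosines (1.52 to 2.15) and 1.57 enzyme-only sites (1.30 to 1.89). Exons in 25 to 50% had 8.58 and 8.28, and exons in 50 to 75% had 19.4 and 18.0. The 3478 exons in over 75% of the models had 31.6 (30.6 to 32.6) and 27.1 (26.2 to 28.0). Each step up in inclusion was larger than the counting error in both libraries.

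The same order held when each gene was compared with its own never-skipped exons. Rarely included cassette exons had 0.0567 times the RBFOX2 density of their gene's never-skipped exons (0.0467 to 0.0688), the next class 0.445 times and the third 0.945 times (0.886 to 1.01). Cassette exons included by over 75% of the models stood above the never-skipped exons, at 1.24 times (1.20 to 1.30). The enzyme-only ratios were 0.0609, 0.461, 0.969 and 1.22, and without bases of first or last exons the RBFOX2 ratios were 0.0376, 0.393, 1.07 and 1.27. Fewer reads through a rarely included exon and fewer edits per read of it cannot be told apart, since reads are given per gene.

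**Figure D1:**
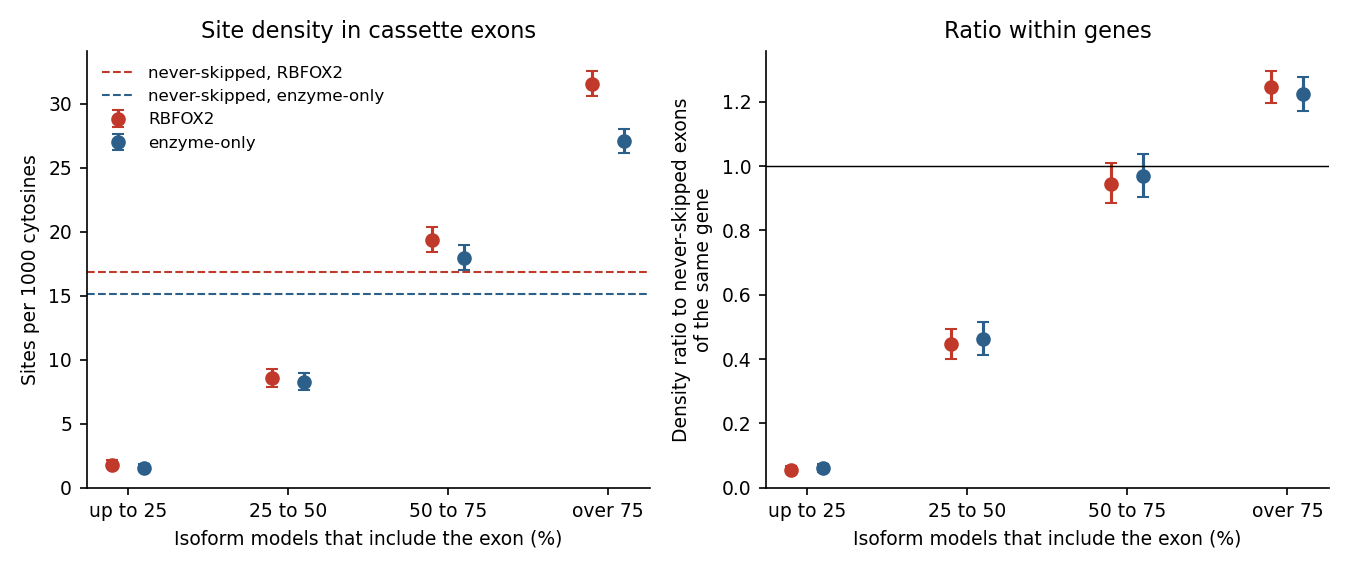
Left, sites per 1000 cytosines in cassette exons (points) by the percentage of isoform models that include the exon, for the RBFOX2 (red) and enzyme-only (blue) libraries, with never-skipped exons as dashed lines. Right, the ratio to never-skipped exons of the same gene, with 1 as the black line. Bars are 95% intervals of counting error. Both libraries climb together, from 1.82 and 1.57 to 31.6 and 27.1 sites per 1000 cytosines.

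Exons that are wholly coding had the most edits. Such cassette exons, 5667 in number, carried 25.6 RBFOX2 sites per 1000 cytosines and 22.3 enzyme-only sites, against 19.3 and 17.0 in wholly coding never-skipped exons. The 2271 cassette exons without a coding cytosine carried 3.52 and 3.11, against 7.14 and 6.80. Cassette exons that GENCODE does not list had 3.35 and 3.28, and listed ones 19.7 and 17.4. When coding cytosines were compared only with coding cytosines of the same gene, cassette exons were lower, at 0.872 times (0.842 to 0.903) in the RBFOX2 library and 0.851 times (0.820 to 0.883) in the enzyme-only library. Exons longer than 200 nt had 13.3 and 13.1 sites per 1000 cytosines, below the 19.8 and 16.9 of exons of 81 to 200 nt. In cassette exons of at least 75 nt, the 25 nt next to either splice site carried more RBFOX2 sites (20.5 per 1000 cytosines at both ends) than the middle (17.4). Never-skipped exons had the same shape (20.9, 18.2 and 20.7). The enzyme-only library was also lower in the middle, with 17.1, 15.8 and 18.0 in cassette exons and 18.0, 16.4 and 17.8 in never-skipped exons. Its intervals for the first 25 nt (15.9 to 18.4) and the middle (15.3 to 16.4) of cassette exons overlapped. Exon length as a multiple of 3 made little difference, with 17.1 RBFOX2 sites per 1000 cytosines for such exons and 17.9 for others.

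RBFOX2 sites outnumbered enzyme-only sites in cassette exons by 1.13 (1.09 to 1.17) and in never-skipped exons by 1.11 (1.09 to 1.13). The ratio of these ratios was 1.01 (0.973 to 1.06), so that over all genes together no difference between the exon classes beyond counting error was seen. Both lay under the ratio of 1.20 over all listed sites. The ratio moved with the reads of the gene, taken from the library that had more. In cassette exons it was 1.34 (1.18 to 1.52) under 100 reads and 1.19 (1.14 to 1.24) with 100 to under 500 reads. In never-skipped exons it was 1.10 (1.04 to 1.17) and 1.16 (1.14 to 1.19). Under 100 reads the intervals of the exon classes thus did not overlap, a difference that was not tested further. With 500 reads or more it was 0.734 (0.660 to 0.817) in cassette exons and 0.792 (0.744 to 0.843) in never-skipped exons. This class of reads includes genes where only 1 library had 500 reads, so that single converted reads were listed in the other library only. Its part in the value of 0.734 was not tested. Where both libraries had 500 reads or both had fewer, the ratio was 1.21 (1.17 to 1.26) in cassette exons and 1.17 (1.15 to 1.19) in never-skipped exons.

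Among cassette bases in no first or last exon, the ratio of RBFOX2 to enzyme-only sites was 1.22 (1.14 to 1.31), against 1.14 (1.10 to 1.18) in never-skipped exons, and the ratio between them, 1.07 (0.992 to 1.16), included 1. Coding cassette bases had 1.14 and non-coding ones 0.990 (0.873 to 1.12). By inclusion, the ratio was 1.16 (0.894 to 1.49) for the exons included least and 1.17 (1.11 to 1.22) for those included most. The 4 inclusion classes had intervals that overlapped.

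**Figure D2:**
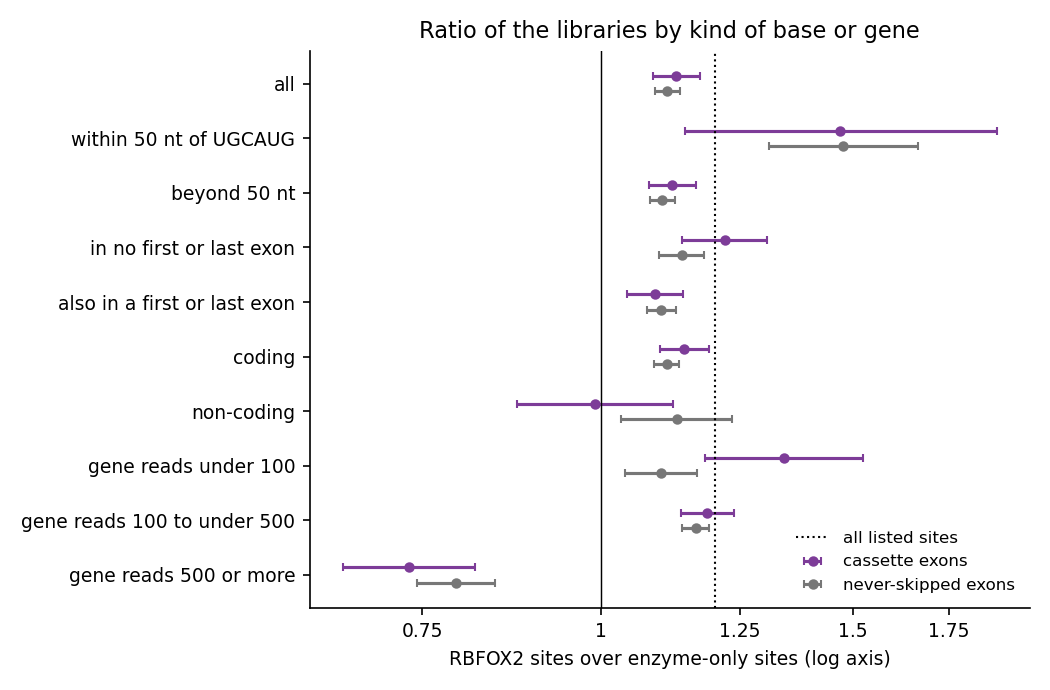
RBFOX2 sites over enzyme-only sites (log axis) in cassette exons (purple) and never-skipped exons (grey), with 95% intervals of counting error. Rows are kinds of base or classes of gene reads, taken from the library that had more. The solid line marks equal numbers and the dotted line the ratio of 1.20 over all listed sites. In genes with 500 reads or more in at least 1 library, cassette exons fall to 0.734.

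The RBFOX2 sites were better supported. In cassette exons 15.7% (14.8 to 16.7%) had at least 2 converted reads, against 12.0% (11.2 to 12.9%) of enzyme-only sites, and in never-skipped exons 13.8% and 10.5%. At this minimum, 933 RBFOX2 and 632 enzyme-only sites remained in cassette exons, a ratio of 1.48 (1.33 to 1.64), with 1.46 in never-skipped exons. The cytosine followed an A or U in 69.0% of RBFOX2 sites and 60.8% of enzyme-only sites of cassette exons, against 44.4% of all their cytosines. With 3 or more converted reads this share was 93.0% (284 sites) and 80.1% (146 sites). Both libraries thus carried the preference of APOBEC1, the RBFOX2 library more so.

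The libraries were then compared by distance to UGCAUG, searched on the transcript strand of the genome. In cassette exons 2.70% of RBFOX2 sites (2.30 to 3.14%) and 2.08% of enzyme-only sites (1.71 to 2.50%) were within 50 nt of it, as were 2.33% of all cytosines, which lies inside both intervals. These were 160 RBFOX2 sites and 109 enzyme-only sites on 7861 cytosines, or 20.4 per 1000 (17.3 to 23.7) and 13.9 per 1000 (11.4 to 16.7). Farther away they had 17.5 and 15.6. The libraries differed 1.47-fold near the motif (1.14 to 1.89) and 1.12-fold beyond (1.08 to 1.16), and the ratio of these was 1.31 (1.02 to 1.69). Never-skipped exons gave 1.34 (1.18 to 1.51), so that cassette exons had no larger excess near the motif than other exons: the libraries' ratio there was 0.994 times that of never-skipped exons (0.752 to 1.32).

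The excess was larger for sites with at least 2 converted reads. There were 31 such RBFOX2 sites within 50 nt of UGCAUG, in 17 cassette exons, with up to 6 converted reads. The enzyme-only library had 8, in 8 exons, with up to 3. These numbers differed 3.88-fold (1.74 to 9.76), against 1.45-fold farther away (1.30 to 1.60). Never-skipped exons had 141 and 45 such sites near the motif, 3.13-fold (2.23 to 4.49), against 1.43-fold farther away (1.35 to 1.51). The larger excess was therefore not particular to cassette exons. Counting sites with at least 1 converted read, the excess near the motif was not seen in all cassette bases. On those in no first or last exon there were 42 RBFOX2 and 44 enzyme-only sites near the motif (ratio 0.955, 0.610 to 1.49). On the rest there were 118 and 65 (1.82, 1.33 to 2.50). In never-skipped exons the former bases gave 198 and 137 (1.45, 1.16 to 1.81). With at least 2 converted reads, the former cassette bases had 4 and 0 sites and the rest 27 and 8 (3.38, 1.49 to 8.60). The former never-skipped bases then had 29 and 8. The 2 sets of cassette bases were not tested against each other.

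By distance, cassette exons had 23.8 RBFOX2 sites per 1000 cytosines at 1 to 20 nt from the motif (18.6 to 30.0), 19.3 at 21 to 50 nt, 16.2 at 51 to 200 nt and 17.6 beyond. The enzyme-only densities were 15.6, 13.2, 15.2 and 15.6, and showed no such gradient beyond their intervals.

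**Figure D3:**
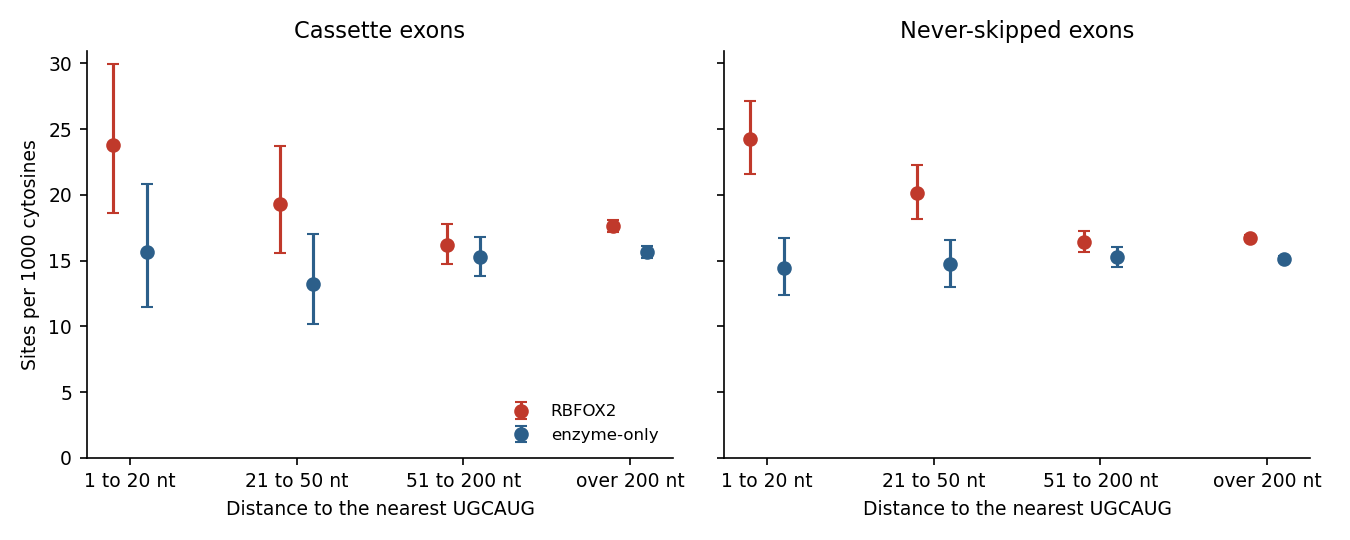
Sites per 1000 cytosines by distance to the nearest UGCAUG in cassette exons (left) and never-skipped exons (right), for the RBFOX2 (red) and enzyme-only (blue) libraries, with 95% intervals of counting error. RBFOX2 density is highest next to the motif in both panels, 23.8 and 24.3 at 1 to 20 nt.

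UGCAUG itself was no more frequent in cassette exons, where 277 of 9280 held it (2.98%), than in never-skipped exons (3.06%). Cassette exons with the motif inside had 325 RBFOX2 and 251 enzyme-only sites (ratio 1.29, 1.09 to 1.53). In the 200 nt of flanking intron, where RBFOX2 is known to act on splicing, the motif stood downstream of 5.93% of cassette exons (5.45 to 6.43%) and of 5.28% (5.04 to 5.54%) of never-skipped exons, and upstream of 5.34% and 5.14%. Cassette exons with a downstream motif had a ratio of 1.09 (0.932 to 1.27) and those with an upstream motif 1.16 (0.980 to 1.38), near the 1.12 of cassette exons with none in exon or introns. No larger excess of RBFOX2 edits was detectable in exons flanked by an intronic UGCAUG.

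Of the 10 exons with the best supported RBFOX2 sites near UGCAUG, 9 are described, chosen by their highest number of converted reads. Among them MKRN1, GPN3, EXOSC7 and DGUOK had at most 2 converted reads at such a site. They were level in this with N4BP2L2, which was not among the 10. ATP1B3 encodes a beta subunit of the sodium-potassium pump. Its 185-nt exon, in 10 models and skipped by 2, had 7 of 34 cytosines edited in the RBFOX2 library and 3 others in the enzyme-only library, besides 3 edited in both. Counted from the 5′ end of the exon, its UGCAUG covered positions 80 to 85, and position 100 had 6 converted reads of 958 gene reads. Positions 93, 94 and 108 had 3 each and position 69 had 2, all within 23 nt of the motif, while positions 148 and 168, with 4 and 3, lay 63 and 83 nt away. The enzyme-only library (934 gene reads) had sites of its own at positions 7, 132 and 143, with 3, 2 and 3 converted reads, 47 to 73 nt from the motif, and at the shared position 105 the libraries had 6 and 2 converted reads.

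PPP2CA encodes the catalytic subunit of protein phosphatase 2A. Its 210-nt exon had 6 of 33 cytosines edited in the RBFOX2 library, with 3 to 5 converted reads each out of 1387 gene reads, and no site in the enzyme-only library with 1260 gene reads. At these read numbers a site needed 3 converted reads to be listed in either library. All 6 were downstream of the motif at positions 71 to 76, the nearest at 85 and 93 with 3 and 5 converted reads. VRK1, a nuclear serine/threonine kinase, had 5 of 21 cytosines edited in its 121-nt exon, at positions 30, 47, 48, 58 and 70 around the motif at 39 to 44, and 1 enzyme-only site at position 12 with 1 converted read. Position 69 was edited in both, with 4 and 1 converted reads. The VRK1 gene had 559 and 450 reads, so single converted reads were listed in the enzyme-only library only.

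MKRN1, a makorin ubiquitin ligase, had 8 of 23 cytosines edited in its 129-nt exon in the RBFOX2 library, while the enzyme-only library had no site there, with 264 and 234 gene reads. The 8 lay between positions 34 and 60, all after A or U and all downstream of the motif at 9 to 14. GPN3, a GTPase linked to the import of RNA polymerase II, had 8 RBFOX2 sites on both sides of its motif at 81 to 86 and 2 enzyme-only sites. In PCMT1, which encodes an enzyme that repairs isoaspartyl residues, the only site was the cytosine at position 86, directly before the second of 2 motifs, with 5 converted reads of 1083 in the RBFOX2 library alone.

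VPS29, a subunit of the retromer, had 15 RBFOX2 sites and 2 enzyme-only sites, but its exon holds no UGCAUG and only its last base, position 236, was within 50 nt of one. EXOSC7, a subunit of the RNA exosome, had 3 and 2 sites in its 156-nt exon, and at position 95, beside the motif at 97 to 102, both libraries had a converted read (2 and 1). DGUOK, the mitochondrial deoxyguanosine kinase, had 1 RBFOX2 and 2 enzyme-only sites. Its 116-nt exon was in 8 models and skipped by 11, the only 1 of the 9 skipped by more models than include it.

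**Figure D4:**
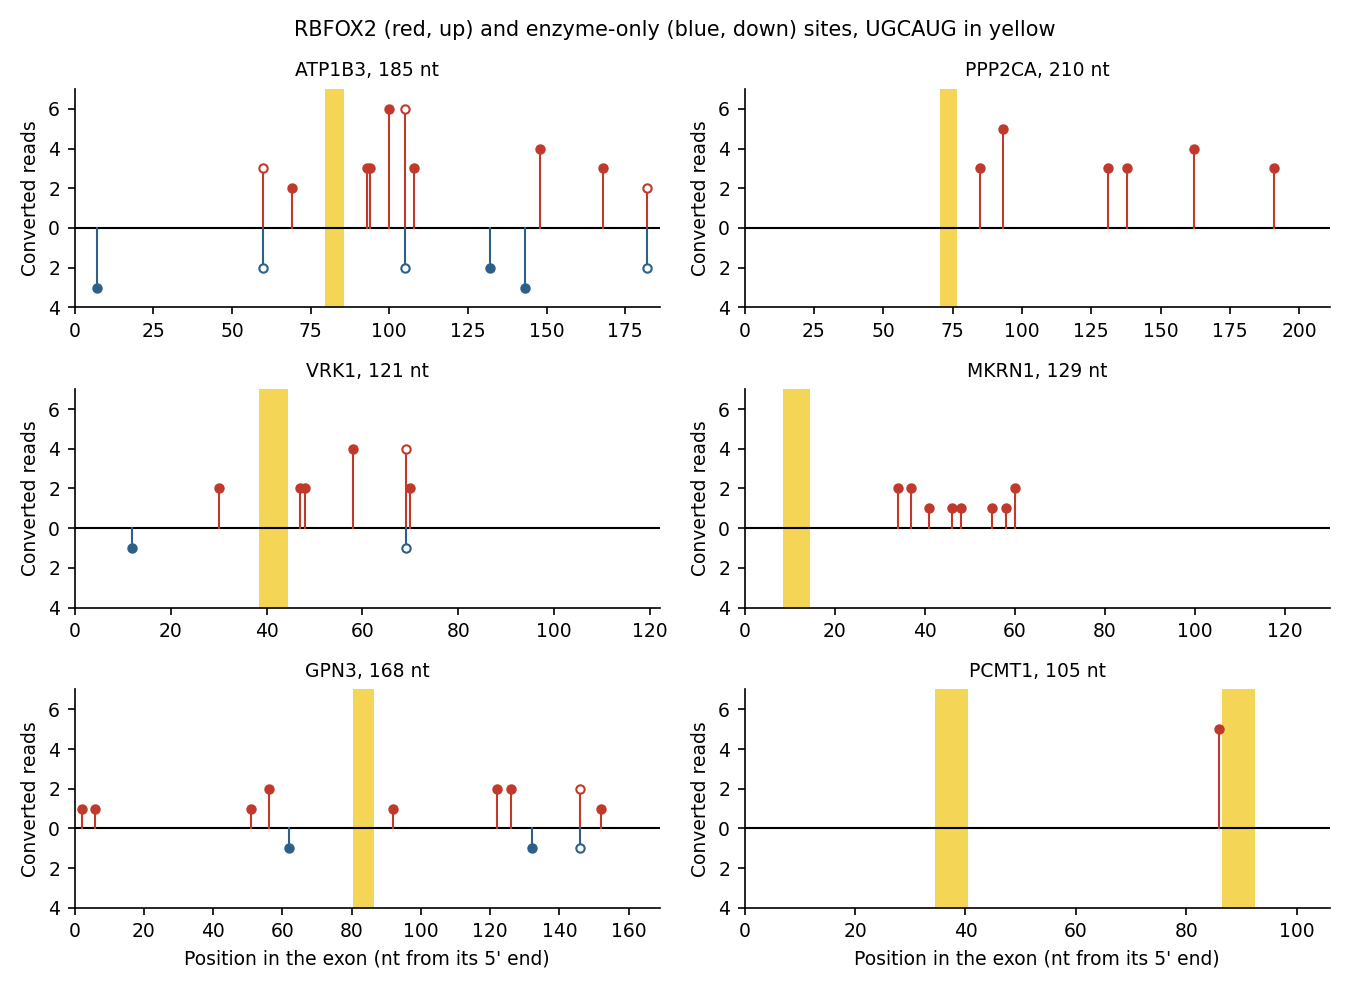
Converted reads (vertical axis) by position along 6 cassette exons, from the 5′ end of the exon in nt, for RBFOX2 sites (red, up) and enzyme-only sites (blue, down). Open circles mark positions listed in both libraries and yellow bands mark UGCAUG. PPP2CA, MKRN1 and PCMT1 show RBFOX2 sites only.

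Of 711 cassette exons with at least 5 sites, 176 (24.8%) had more than 2 times as many RBFOX2 as enzyme-only sites after scaling by library totals, and 170 (23.9%) had fewer than 1 for every 2. Over all cassette and never-skipped exons with 5 sites, the corresponding shares were 24.4% and 25.1%, so the cassette exons were near the background in both directions. No enzyme-only site was listed in 43 of the 711 and no RBFOX2 site in 34. Such exons were not counted among never-skipped exons, so these numbers have no background and are not read as particular to cassette exons.

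The 5 with the highest ratios had 8 RBFOX2 sites and no enzyme-only site each, apart from positions edited in both: MKRN1 above, EMG1 and MSMO1, which act in ribosome assembly and sterol synthesis, RBBP8, which acts in DNA end resection, and RNFT1, a membrane RING-finger protein. RNFT1 had 86 and 92 gene reads, and its 101-nt exon, included by 8 models and skipped by 2, has no UGCAUG in it and no overlapping first or last exon. Its sites lay at positions 9 to 99, with 1 converted read each except position 83 with 2. The scaled log2 ratio of these 5 was 3.82. The 5 lowest were SAC3D1 (0 against 18 sites), MRPL55 (0 against 14 over 6 overlapping exon models), HNRNPUL1 and TCOF1 (0 against 9 each) and ARIH2 (0 against 8, level with 3 other exons and taken by the order of names). In all 5 of these genes the RBFOX2 library had over 500 reads (503 to 578) and the enzyme-only library under 500 (437 to 490), so that single converted reads could be listed in the latter only.

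**Figure D5:**
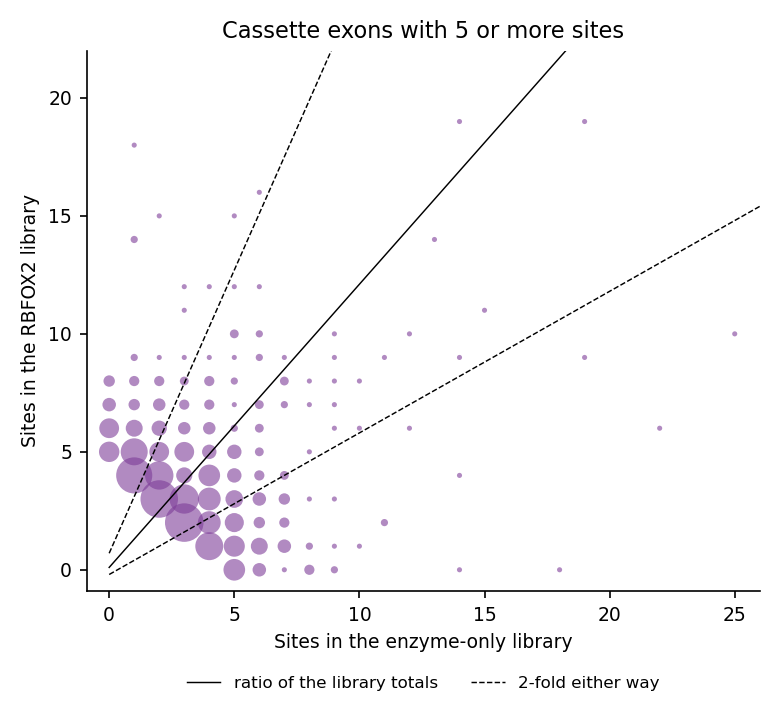
RBFOX2 sites against enzyme-only sites in cassette exons with 5 or more sites, with the area of each circle in proportion to the number of exons at that pair of counts. The solid line is the ratio of the library totals and the dashed lines are 2-fold from it with a pseudocount of 0.5. Of 711 exons, 176 lie above and 170 below the dashed lines.

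The exons with the most sites were long ones, of 403 to 2700 nt. DEGS1, the last enzyme of ceramide synthesis, had 19 sites in each library among 152 cytosines. PRCC had 10 and 25, TSEN54, of the tRNA splicing endonuclease, 19 and 14, and the transcription factor FOXO3 6 and 22. PUS1, a pseudouridine synthase, had 9 and 19, N4BP2L2 14 and 13, MAGED2 11 and 15, GRINA 9 and 14, WDR6 16 and 6, and ZNF106 10 and 12. Nearly all of their cytosines were also in a first or last exon of another model. For 7 of the 10, enzyme-only sites were equal in number to RBFOX2 sites or more.

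Genes known for cassette exons that RBFOX proteins regulate were looked at as a list of 24, of which 13 had cassette exons here, 29 in all. Sites were in 8 of the 29 (5 RBFOX2 and 4 enzyme-only sites), or 5.85 (1.90 to 13.6) and 4.68 (1.28 to 11.9) per 1000 cytosines, under the 17.6 and 15.6 of all cassette exons. Never-skipped exons of these genes stood at 8.14 and 6.31, which lie inside these intervals. The cassette sites were in CAMK2G, MAP3K7 and NUMB (2 exons each), PICALM and TJP1, with 1 or 2 sites each and 1 converted read at most. The 24-nt PICALM exon, in 6 models and skipped by 11, had 1 RBFOX2 site at position 19. At 1 or 2 sites an exon, no difference between the libraries was detectable in any of the 8.

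Splicing factors themselves carry many cassette exons, some of which make the transcript a target of decay. Of 13 SR and SR-like factors, 10 had cassette exons, 20 in all, and 3 of these, in SRSF8, TRA2A and TRA2B, had a site. All 5 sites were in the RBFOX2 library. None of 770 cytosines was listed in the enzyme-only library, which by the limit of 3 counts allows up to 3.90 per 1000. In 13 of 16 hnRNP genes there were 34 cassette exons and 10 had sites, 13 RBFOX2 and 9 enzyme-only, or 11.8 (6.32 to 20.2) and 8.20 (3.75 to 15.5) per 1000 cytosines. The 171-nt exon of HNRNPDL, a relative of HNRNPD, had 2 RBFOX2 sites with 6 and 5 converted reads and 1 enzyme-only site with 3, and a 120-nt exon of HNRNPA2B1, a gene with 5184 and 4913 reads, had 1 enzyme-only site with 12. Of 6 CLK and SRPK kinases, which phosphorylate SR proteins, 4 had 7 cassette exons, 2 of them with sites. CLK1 had 6 RBFOX2 sites and 1 enzyme-only site in a 167-nt exon (58 and 49 gene reads) and SRPK1 had 1 and 0. In all 3 lists RBFOX2 sites were the more numerous, and not in cassette exons alone. Never-skipped exons of the same genes had 29 RBFOX2 and 15 enzyme-only sites in SR factors, 59 and 17 in hnRNP genes (17.0 and 4.89 per 1000 cytosines, 13.0 to 21.9 and 2.85 to 7.82) and 21 and 8 in the kinases. The lists were not tested against the 1.13-fold of all cassette exons.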

How the data were processed

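Cassette exons, comparison classes and lists were chosen with earlier results of these data known. The 2 libraries, RBFOX2 and enzyme-only, were assigned from their descriptions. The label numbers differ (2 and 1) and pair nothing. Per the methods of the study, full-length reads were aligned to hg38 with pbmm2 and edits called with custom code. Those methods name another library kit (Kinnex) than the labels, so the tables may come from another run. For each site the tables deposited by the authors give the count of reads with a conversion, the count for the whole gene, an edit fraction (the former divided by the latter, always above 0.002, the depth at the position being unknown) and a confidence score, which was not used. Reads of listed genes summed to 2431345 (RBFOX2) and 2233600.

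All listed positions were cytosines of hg38. Symbols and coding status came from GENCODE 44 by exonic overlap, for 4908 of 4913 genes. 941 of these overlap more than 1 annotated gene. Sites were distinct positions listed in 1 library, so any position listed in both was left out. The study's own filter differs: it removed, as putative SNPs, edits present in every replicate and sample. dbSNP removal was not repeated. Densities are sites per 1000 cytosines of the merged exons, with exact (Clopper-Pearson) 95% intervals, and ratios of ratios are conditional odds ratios (SciPy 1.17.1, pandas 2.3.3, pysam 0.24.0). Mantel-Haenszel ratios within genes have Greenland-Robins 95% intervals, which are a normal approximation. Overlapping exon models were represented by the one in most isoforms. Functions were tested on simulated data. Described exons were the 10 with most sites, the 5 highest and 5 lowest library ratios (pseudocount 0.5) among those with at least 5 sites, up to 10 with an RBFOX2 site of at least 2 converted reads within 50 nt of UGCAUG (1 of these is not reported here), and those with a site in the gene lists. Alternatives varied the exon definition, site filter, read minimum and motif window.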

Additional observations from a re-analysis of the deposited data

How the results depend on the processing

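Of 143 recomputed values, 73 stayed inside the interval of the reported value (counts of exons within 1.5 times), 66 moved out of it and 4 turned direction. The cause of these changes was not tested. No paired analysis was possible because each condition is 1 library and the label numbers differ. All values below give the RBFOX2 library before the enzyme-only library.

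The density ratio of cassette over never-skipped exons in the RBFOX2 library turned below 1 within genes (0.774), without bases of first or last exons in cassette exons (0.671) or in both classes (0.946), and with never-skipped bases in no intron (0.904). The enzyme-only ratios were then 0.785, 0.612, 0.883 and 0.895. It rose with at least 2 converted reads (1.19 and 1.18), with at least 2 including and 2 skipping isoforms (1.08 and 1.07) and with GENCODE exons only (1.10 and 1.07).

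Densities in cassette exons became 19.5 and 17.5 per 1000 cytosines with shared sites kept, 2.76 and 1.87 with at least 2 converted reads, 20.2 and 16.6 with a common read minimum, 20.1 and 17.8 in genes of at least 20 reads, 19.8 and 18.2 with 2 including and 2 skipping isoforms, 20.3 and 17.9 with GENCODE exons, and 11.3 and 9.25 without bases of first or last exons. In never-skipped exons they became 18.6 and 16.9, 2.32 and 1.58, 19.4 and 16.6, 19.4 and 17.5, 18.4 and 17.0, and 18.5 and 16.7 under the first 6 of these, and 19.4 and 17.4 on bases in no intron.

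The library ratio became 1.48 in cassette and 1.46 in never-skipped exons with at least 2 converted reads, 1.21 and 1.17 with a common read minimum, 1.09 in never-skipped exons with 2 including and 2 skipping isoforms, and 1.22 in cassette exons without bases of first or last exons, where the ratio of the ratios was 1.10 (1.02 to 1.18, an interval without 1) against never-skipped exons left whole.

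The share of sites near UGCAUG became 3.32% and 1.27% with at least 2 converted reads. A changed window is another measure, so its shares had to move and are given beside that of all cassette cytosines. They were 1.20% and 0.914% within 20 nt (0.965% of cytosines) and 9.95% and 9.79% within 200 nt (10.2%). Without bases of first or last exons the shares were 2.24% (1.62 to 3.02%) and 2.87% (2.09 to 3.83%), against 2.46% of cytosines. There the enzyme-only share was the larger, with overlapping intervals. The share with at least 2 converted reads became 17.9% and 13.8% with shared sites kept and 11.7% and 8.73% without bases of first or last exons. The share after A or U became 70.5% and 63.4% with shared sites kept, 84.5% and 75.9% with at least 2 converted reads, and 62.7% in the enzyme-only library without bases of first or last exons. Exons past 2-fold, 346 of 711 as reported, numbered 25 of 37 with at least 2 converted reads and 126 of 268 with 2 including and 2 skipping isoforms. They numbered 50 of 111 without bases of first or last exons and 41 of 119 with at least 10 sites. Fewer exons were thus tested in each. Of 128 never-skipped exons with at least 2 converted reads, 57 lay above and 24 below. With 2 including and 2 skipping isoforms these were 278 and 321 of 1214, and with at least 10 sites 66 and 103 of 400. Without bases of first or last exons in both classes they were 93 and 76 of 320.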

Other observations

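Introns within 300 nt of a cassette exon held few listed sites, 35 RBFOX2 and 24 enzyme-only sites for 9280 exons (ratio 1.46, 0.843 to 2.56), and 1 of the 35 was within 50 nt of UGCAUG. At least 2 converted reads stood behind 5 of the 35 and none of the 24. Exonic bases skipped in other ways, as when several exons are left out together, had 18.4 RBFOX2 sites and 16.3 enzyme-only sites per 1000 of 118136 cytosines, with a library ratio of 1.13 (1.06 to 1.20).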
